A study of Mus musculus with 13 samples.

Results

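The maturation of SN oocytes from the germinal vesicle (GV) stage to metaphase II (MII) was examined in single mouse oocytes. SN stands for surrounded nucleolus, the state of a fully grown oocyte in which condensed chromatin rings the nucleolus. Libraries were chosen by their labels alone, as those of SN oocytes, which gave 3 libraries of SN GV oocytes and 4 libraries of oocytes that had reached MII after selection as SN (SN-MII), 7 of the 13 libraries of the series. The other libraries came from NSN oocytes, whose nucleolus is not surrounded by chromatin, and none of them entered a comparison.

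All 7 oocytes came from C57BL/6 females of 3 to 4 weeks of age, collected 48 h after PMSG, a gonadotropin that stimulates follicle growth. GV oocytes of both groups were injected with mRNA for FBL-GFP, a fluorescent form of the nucleolar protein fibrillarin. They were held for 6 h in Cilostamide, used at 10 µM, which inhibits phosphodiesterase 3A and so keeps oocytes at the GV stage. Oocytes with the SN pattern of FBL-GFP were then lysed as SN GV, or released from the drug and cultured until MII to give SN-MII. Selection therefore preceded maturation, and each SN-MII library holds an oocyte that had completed the first division in culture. The stages thus differed both in meiotic stage and in hours of culture after release, which cannot be told apart. No uninjected or ovulated oocyte was among these groups.

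The zona pellucida was removed before lysis, and cDNA was made with the SMART-seq2 protocol, in which reverse transcription starts at the poly(A) tail and the product is multiplied by PCR. A change in the number of mRNA molecules and a change in the length of their tails cannot be told apart in such libraries. No spike-in was named, so every level is relative to the rest of its library. The labels do not say whether the oocytes came from different females, and p-values measure the spread between these single oocytes.

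Fully grown SN oocytes make almost no new RNA, and transcription stays off through both meiotic divisions. Maturation therefore runs on mRNAs that were stored during growth. Some stored mRNAs receive longer poly(A) tails and are translated, many through cytoplasmic polyadenylation elements near their 3′ end, while many others are deadenylated and destroyed. The proteins made in this way drive CDK1 activity, spindle assembly, the arrest at metaphase II and the first steps after fertilization.

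Each library held between 7140404 and 8846297 counts, and all 7 were close in depth. More genes had at least 1 count in SN GV (12980 to 13273) than in SN-MII (11830 to 12489). The 10 most abundant genes took 5.47% to 5.69% of the counts at GV and 9.22% to 11.03% at MII. Pearson correlations of log2 CPM (counts per 1000000 of the scaled library size) lay between 0.947 and 0.972 within SN GV, between 0.951 and 0.966 within SN-MII and between 0.717 and 0.802 across the stages. Of 20 oocyte markers, 19 passed the filter on low counts, with a summed level of 30082 to 31283 CPM at GV and 34723 to 41236 CPM at MII. Markers of granulosa and cumulus cells, the somatic cells that surround an oocyte, summed to 57.2 to 86.8 CPM at GV and 105 to 127 CPM at MII. Foxl2, Lhcgr, Ptx3 and Col1a1 were at 0 in all 7 libraries. Only 4 of these 20 markers could be tested, and Cyp19a1, which encodes aromatase, was the member that passed, with 37.6, 54.9 and 65.7 CPM at GV and 77.9 to 115 CPM at MII. It made up most of both sums. Kitl (0.58), Has2 (0.26) and Col4a1 (-0.11, all log2 fold changes) did not pass. Among members not tested, Fshr, Cyp11a1 and Gja1 had 1 to 27 counts per library at GV and 0 to 3 at MII. Amh and Npr2 had 0 counts at GV and 0 to 5 at MII. The part of these markers in the results was not tested.

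The poly(A)-primed transcriptome changed in most of its genes. Of 10722 genes tested by edgeR's quasi-likelihood test, 6920 (64.5%) were called at an adjusted p under 0.05. Of these, 3256 (30.4% of genes tested) were higher and 3664 (34.2%) were lower in SN-MII. Large changes went mainly one way: 2115 genes (19.7%) were called and at least 4-fold lower, and 101 genes (0.942%) were called and at least 4-fold higher. The latter count was 224 without SN GV replicate 2, 40 with library totals and 5 to 61 in the limma fits on FPKM. The median log2 fold change was 1.15 among genes called higher and -2.28 among genes called lower, beside -0.00 over all genes tested.

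The distribution of the change was lopsided. Its fullest bins lay between 0.75 and 1 and between 1 and 1.25 on the log2 scale and held 881 genes each. A long tail ran downwards, so that the 5th percentile was -4.11 and the 95th was 1.57. Genes called lower held 41.5% of all CPM at GV and 9.52% at MII, while genes called higher held 43.3% at GV and 77.8% at MII. In 7053 genes (65.8%) every library of one stage lay above every library of the other, and 136 genes called lower had 3 counts or fewer in every SN-MII library.

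Directions depend on the scale, since a fixed number of reads is shared among the mRNAs of each oocyte. The main scale (TMM) left the median log2 fold change of all genes at -0.00. Its fullest bins lay between 0.75 and 1.25, so a rise near 1 lay at the peak of the distribution. With library totals alone the median of all genes moved by -0.31 on the log2 scale, and the split became 2434 genes higher and 4188 lower. With upper-quartile factors the median moved by 0.11, and 3528 genes were higher and 3497 lower. Every rise given here is a rise relative to the other mRNAs of the same oocyte, and the amount of mRNA per oocyte was not measured.

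**Figure D1:**
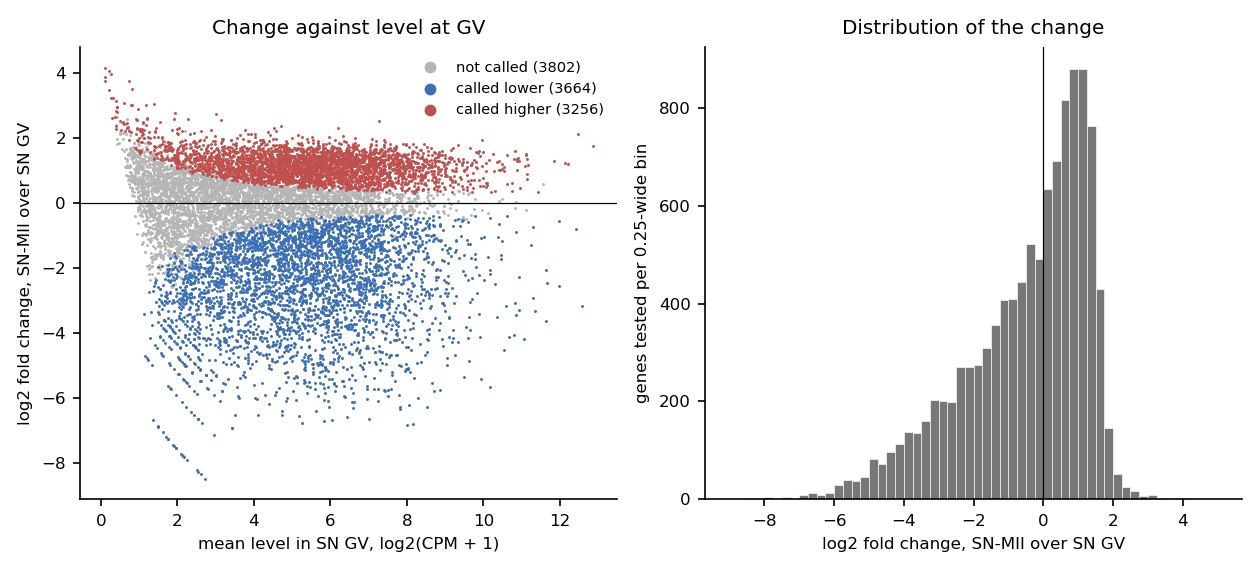
Left, log2 fold change of SN-MII over SN GV (vertical axis) against the mean level in SN GV as log2(CPM + 1) (horizontal axis), with 1 point for each of the 10722 genes tested. Right, number of genes in each bin of log2 fold change. Rises crowd between 0 and 2, while falls spread down below -6 over a wide range of levels.

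The 3′ ends of the mRNAs differed along this range of change. The last 150 bases of 1 annotated protein-coding transcript per gene (GENCODE M21, GRCm38) were searched on the sense strand for the letters of a cytoplasmic polyadenylation element, TTTTAT or TTTTAAT, which CPEB1 binds. A transcript was available for 10595 genes tested, and 8339 of them held the polyadenylation hexamer AATAAA or ATTAAA within their last 50 bases. Of these 8339 windows, 25.8% held the element. It was present in 37 of 88 genes (42.05%) that were at least 4-fold higher and in 121 of 1465 genes (8.26%) that were at least 4-fold lower. From the largest falls to the largest rises, the share was 5.77%, 9.26%, 14.8%, 22.1%, 30.3%, 40.6% and 44.5% in 7 consecutive bins of log2 fold change.

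Sites of genes on which the comparison turns are printed below to show what such an element looks like beside the end of the mRNA. Each is 30 bases of the 3′ UTR on the mRNA strand, 5′ to 3′, from the GENCODE M21 transcripts of GRCm38, with the element in capitals and also the hexamer where the stretch reaches it. Cyclin B1, the CDK1 partner, lies first, and Ube2t, which held the element and was not called, lies last.
Ccnb1, chr13:100778768-100778797, minus strand: gctgTTTTAATttatacatctgatatcaag
Fbxo43, chr15:36150137-36150166, minus strand: gtgtTTTTATactatacacacatatttcaa
Cdc20, chr4:118432910-118432939, minus strand: tttaTTTTATtttttctAATAAAgttcgta
Bub1b, chr2:118641561-118641590, plus strand: tgtaTTTTATAATAAAatagtttttgttac
Wee2, chr6:40466764-40466793, plus strand: cataTTTTAATccagatcattgtaAATAAA
Gdf9, chr11:53437862-53437891, plus strand: gtggTTTTATgtgacggaagAATAAActgt
H1foo, chr6:115950165-115950194, plus strand: aagcTTTTATtgtctaataagctgtcacaa
Ube2t, chr1:134974089-134974118, plus strand: tttgTTTTATttatcttgtacatatgtatt

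The spacing differed among these mRNAs. In Bub1b the element directly abutted the hexamer, and in Cdc20, Gdf9 and Wee2 it ended 7, 10 and 13 bases before it. In Ccnb1 the printed element lay 113 bases before the hexamer. The 7 mRNAs printed above Ube2t were all called higher. Presence of the letters did not track the call in every gene, since Tpx2, Slbp, Dazl and Cnot6l rose without them in this window, and Ybx2 and Aurka, whose windows held them but lacked the hexamer, were lower. The 3′ end that the oocytes used was not measured.

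Base composition moved together with the element. The median GC content of the 150-base window was 46.7% in the bin of largest falls and 31.3% in the bin of largest rises. The AU-rich pentamer ATTTA rose from 20.1% to 40.7% of windows between the same bins, and the Pumilio-binding octamer TGTANATA from 3.02% to 8.72%. Among genes at least 4-fold higher, ATTTA was in 37 of 88 (42.05%) and TGTANATA in 5 of 88 (5.68%). Among genes at least 4-fold lower the shares were 18.2% and 3.96%, and among all windows 31.0% and 7.15%. Other orders of the letters of TTTTAT also became more frequent, by 2.74 to 7.45 times between the lowest and the highest bin, beside 9.81 times for TTTTAT itself. The last ratio rests on 13 of 364 genes in the lowest bin. Among genes at least 4-fold higher, TTTTAT was in 30.7% of windows and its other orders in 23.9% to 40.9%. Among genes at least 4-fold lower these shares were 6.42% and 8.53% to 12.4%. In windows of 30% to 40% GC the element was held by 433 of 1206 genes called higher (35.9%), 329 of 1186 not called (27.7%) and 148 of 772 called lower (19.2%). In windows of 40% to 50% GC the shares were 22.97%, 14.02% and 6.64%. These counts are descriptions, and the share of composition in the difference was not tested. The 3′ UTR was also longer where mRNAs rose, with a median of 1468 bases among genes called higher and 590 among genes called lower. Transcript length and log2 fold change had a Spearman correlation of 0.36 across 10595 genes, GC content had -0.30, and the mean CPM at GV had -0.03 across 10722 genes. Genes are not independent replicates, and no test was made.

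**Figure D2:**
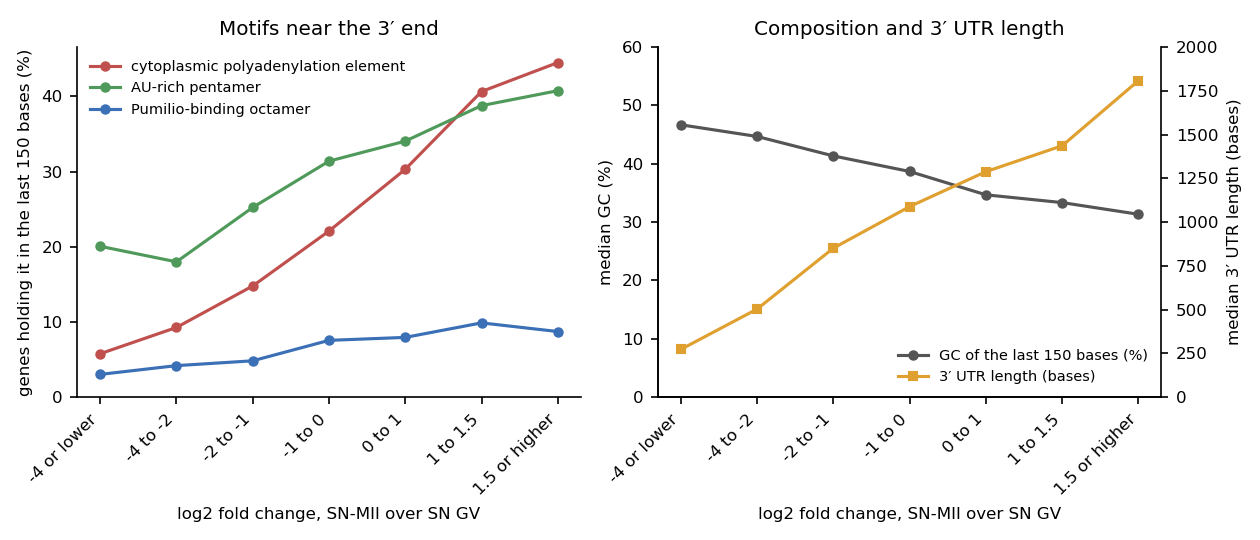
Left, percent of genes whose last 150 transcript bases hold the cytoplasmic polyadenylation element, the AU-rich pentamer or the Pumilio-binding octamer, by bin of log2 fold change (horizontal axis). Right, median GC content of that window (%) and median 3′ UTR length (bases) in the same bins. The element climbs from 5.77% to 44.5% while GC falls from 46.7% to 31.3%.

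The mRNAs with the largest gains were dominated by a few oocyte transcripts. Spin1, which encodes a spindle-associated chromatin reader (chr13:51100880-51152546), had 4634, 6073 and 6282 CPM in SN GV and 22857, 23658, 23862 and 28686 CPM in SN-MII. The stages were far apart, and the log2 fold change was 2.13 ± 0.14 (SE; edgeR's quasi-likelihood test, adjusted p = 4.22e-08). Zbed3, a partner of the subcortical maternal complex, went from 7461 ± 1342 CPM (SD, n = 3) to 24927 ± 4826 CPM (SD, n = 4). Bcl2l10, an anti-apoptotic BCL2 relative abundant in oocytes, went from 3698 ± 498 to 9141 ± 1126 CPM. In all 3 of these genes every SN-MII oocyte was above every SN GV oocyte, which the ranking required. Separation in either direction was found in 65.8% of all genes tested.

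By fold, the largest rises among genes with at least 20 CPM in the higher stage were modest beside the largest falls. Cdv3, which encodes a protein of little known function, had 128, 163 and 173 CPM in SN GV and 863 to 969 CPM in SN-MII, a log2 fold change of 2.53 ± 0.15. Atrnl1 (2.74 ± 0.40) and L3mbtl3 (2.55 ± 0.36) led the ranking from GV levels of 7.11 ± 4.16 and 7.84 ± 4.06 CPM. Ust, Taok3, Efna5, Rasa3 and Plag1 followed with 2.38, 2.31, 2.31, 2.25 and 2.23. All 8 were free of overlap between stages, which the ranking required. Ust, a sulfotransferase gene, varied most at MII, where its CPM were 65.3, 83.7, 173 and 200.

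Among genes with a mean of at least 20 CPM at GV, the largest falls ended at levels close to the floor of detection. Upp1, which encodes uridine phosphorylase, had 237, 258 and 278 CPM in SN GV and 1.40, 1.57, 2.35 and 3.596 CPM in SN-MII, 115-fold lower. Psmb7, which encodes a catalytic β subunit of the proteasome, had 273, 277 and 303 CPM at GV and 1.07 to 3.13 CPM at MII, a log2 fold change of -6.82 ± 0.26 (adjusted p = 7.40e-10). Znrd1, Bola1, Ndufs7, Fam162a, Mok and Snx15 were 94.7-fold to 109-fold lower. The lowest GV level among these 8 was 28.3 CPM, for Snx15 in 1 library, and the highest MII level was 3.596 CPM. The stages were thus widely separated, though the ranking itself required that they did not overlap.

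In absolute CPM the largest losses were Ubb, Padi6, Zp3, Tle6 and Uchl1. Ubb, a polyubiquitin gene, had 5437, 6228 and 6767 CPM at GV and 474 to 845 CPM at MII, a log2 fold change of -3.18 ± 0.18. It shares near-identical ubiquitin repeats with other genes, so its counts are uncertain. Padi6, needed for oocyte cytoplasmic lattices, went from 4047 ± 400 to 684 ± 96.7 CPM. Uchl1, a ubiquitin hydrolase, went from 3184 ± 206 to 761 ± 162 CPM.

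The cAMP pathway holds the GV oocyte in arrest, with the receptor GPR3 raising cAMP and PDE3A, the target of Cilostamide, destroying it. Of 14 of its genes tested, 11 rose, against 30.4% of all genes, 1 fell and the median log2 fold change was 1.15. Gpr3 had 42.1, 42.8 and 44.7 CPM in SN GV and 83.9 to 103 CPM in SN-MII. Pde3a had 128, 187 and 189 CPM at GV and 353 to 445 CPM at MII. Both pairs of groups were separated, with log2 fold changes of 1.10 ± 0.16 and 1.30 ± 0.17. The kinase subunit genes Prkaca (1.30), Prkar2a (1.49) and Prkar2b (1.604) also rose. Pde10a, another phosphodiesterase gene, fell by 1.34 on the log2 scale, from 15.2 ± 1.64 to 6.02 ± 2.32 CPM.

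CDK1 with cyclin B forms the kinase that drives entry into M phase, and their mRNAs moved apart. Cdk1 (chr10:69335146-69352938) had 182, 190 and 199 CPM in SN GV and 1.86, 3.39, 3.55 and 5.49 CPM in SN-MII. It was 52.9-fold lower, a log2 fold change of -5.73 ± 0.26 (adjusted p = 2.96e-09). Ccnb1 (chr13:100778650-100786570), whose 3′ site is printed above, had 1335, 1409 and 1558 CPM at GV and 2658, 2796, 3035 and 3411 CPM at MII, a log2 fold change of 1.05 ± 0.13. The cyclin mRNA was thus higher in each of the 4 SN-MII oocytes than in any SN GV oocyte, and the kinase mRNA was lower in each of them.

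Of 20 genes for cyclin B, CDK1 and their regulators, 9 (45%) rose and 7 (35%) fell, beside 30.4% and 34.2% of all genes, and the list median of 0.27 turned to -0.03 with library totals. Ccna2, another CDK partner, rose by 1.36 ± 0.16, and Ccnb2 by 0.77. Wee2, the oocyte kinase that restrains CDK1, had 923, 1124 and 1209 CPM at GV and 1561 to 1846 CPM at MII, while its somatic relative Wee1 changed by -1.73. The phosphatase genes Cdc25b (-1.75) and Cdc25c (-6.20), whose products activate CDK1, fell on the log2 scale, the latter from 20.3 ± 3.45 to 0.259 ± 0.207 CPM. Plk1 (0.15) and Cdc25a (-0.17) did not pass the test.

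MOS, a kinase made from stored mRNA, acts through MAP2K1 to hold the egg at metaphase II. Mos had 745, 772 and 793 CPM in SN GV and 516, 924, 1063 and 1204 CPM in SN-MII. The 4 SN-MII oocytes spread on both sides of the GV range, and the log2 fold change of 0.27 ± 0.22 did not pass (adjusted p = 0.303). Without SN-MII replicate 1 it was 0.46 (adjusted p = 0.0129), and with library totals it was -0.05. Map2k1 rose by 1.54 ± 0.14, from 345 ± 35.4 to 1003 ± 131 CPM. Fbxo43, which encodes EMI2, the inhibitor of the anaphase-promoting complex that maintains the arrest, had 170, 230 and 235 CPM at GV and 528 to 625 CPM at MII, a log2 fold change of 1.39 ± 0.15. Mapk1ip1, a gene for a MAPK-interacting protein, fell by 3.61, and Mapk3 changed by -1.49. In all, 4 of 13 genes of this list (30.8%) rose, beside 30.4% of all genes, and 2 fell, and its median of 0.24 turned to -0.06 with library totals.

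The anaphase-promoting complex destroys cyclin B and securin to end each metaphase. Its activators moved in opposite directions: Cdc20 had 216, 229 and 241 CPM in SN GV and 543, 547, 550 and 675 CPM in SN-MII (log2 fold change 1.34 ± 0.14), while Fzr1, the activator CDH1 used during GV arrest, fell by 2.72, from 58.0 ± 5.22 to 8.79 ± 5.21 CPM. Bub1b, a checkpoint kinase gene, had 1118, 1515 and 1835 CPM at GV and 2301 to 3335 CPM at MII. Pttg1, which encodes securin, rose by 1.33 and Mad2l1 by 1.11, whereas Bub1 changed by -2.72 and Ttk by -1.67. Of 27 genes, 9 (33.3%) rose and 12 (44.4%) fell, beside 30.4% and 34.2% of all genes tested.

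Of 30 spindle genes tested, 16 (53.3%) rose, beside 30.4% of all genes, and 8 fell, with a median of 0.54. Tpx2, which activates the Aurora A kinase on the spindle, had 250, 301 and 305 CPM in SN GV and 516, 571, 586 and 777 CPM in SN-MII. Aurka, the gene of that kinase, had 320, 382 and 387 CPM at GV and 155, 174, 175 and 226 CPM at MII, a log2 fold change of -0.99 ± 0.15. Tacc3, a further Aurora A partner and one of the abundant mRNAs at GV (chr5:33658128-33678995), had 2051, 2193 and 2236 CPM at GV and 93.9, 105, 122 and 150 CPM at MII. It was 18.4-fold lower. Aurka and Tacc3 thus fell while Tpx2 rose. Among the others, Cep192 (1.66), Kif20a (1.505), Ckap5 (1.43) and Cenpe (1.39) rose, and Haus1 (-2.83), Kif22 (-2.46) and Spc24 (-2.14) were lower.

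**Figure D3:**
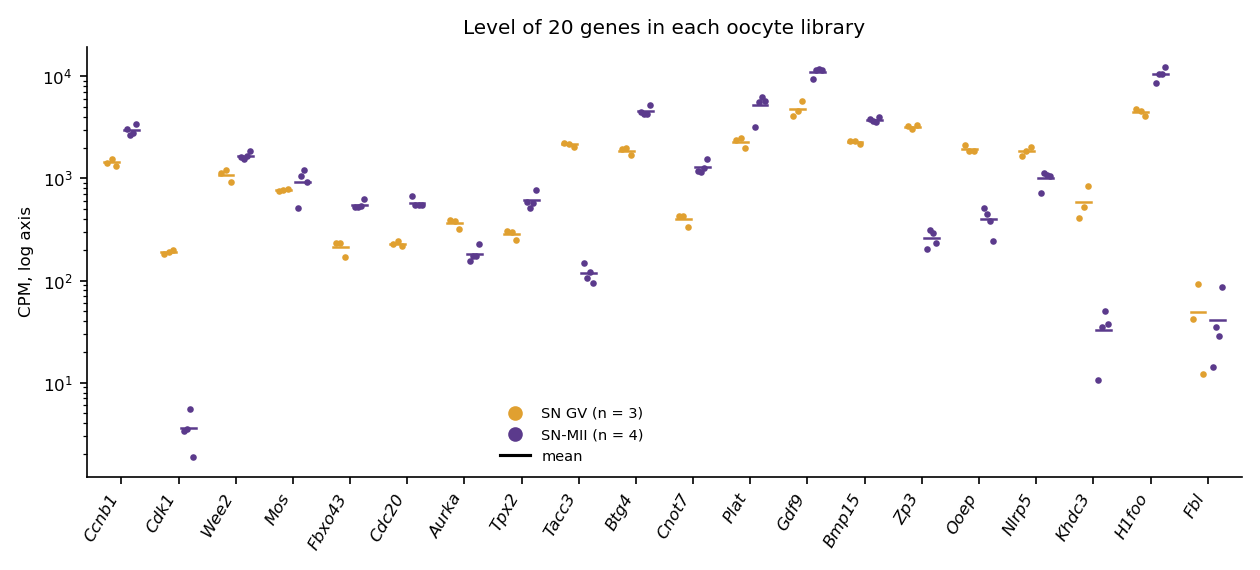
CPM on a log axis of 20 genes in each SN GV library (3 points) and each SN-MII library (4 points), with lines for the means. Cdk1 falls from 182 to 199 CPM to 5.49 CPM or less while Ccnb1 rises, and Mos and Fbl overlap between stages.

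Cohesin holds sister chromatids together and condensin compacts them. Of 22 such genes, 13 (59.1%) rose, beside 30.4% of all genes, and 4 fell, with a median of 1.004. Smc3 (1.25), Rad21 (1.62), Nipbl (1.75), Wapl (1.33) and the protector of centromeric cohesin Sgo2a (1.34) rose. Stag3, a meiosis-specific cohesin gene, had 4.89, 8.43 and 12.1 CPM in SN GV and 3 counts or fewer in every SN-MII library, so it was at least 21.7-fold lower. Pds5a rose by 2.03 ± 0.52, and that call was lost in 2 of the fits on FPKM. Among 25 genes of actin and asymmetric division, 12 (48%) rose and 8 (32%) fell, the latter near the 34.2% of all genes. The spindle-positioning genes Fmn2 (54.5 ± 16.5 to 128 ± 12.3 CPM) and Spire1 (1.22) rose. Spire2, the paralog of Spire1, fell from 22.3 ± 2.56 to 1.07 ± 0.480 CPM, and Actb changed by -1.21.

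Of 19 genes that store and silence maternal mRNA, 8 (42.1%) rose, beside 30.4% of all genes, and 4 fell, with a median of 0.36. Cpeb1, the protein that binds the element printed above, had 1093, 1229 and 1445 CPM in SN GV and 1505 to 1806 CPM in SN-MII. This small rise (0.36 ± 0.13, adjusted p = 0.0289) was lost in 10 of the alternatives and was 0.05 with library totals. Its relative Cpeb4 rose by 1.84, Pum2 by 1.54 and Igf2bp3 by 1.94 ± 0.14. Ybx2, a germ cell RNA-binding protein, fell from 20.02 ± 5.77 to 4.05 ± 1.23 CPM. Zar1 had 739, 799 and 935 CPM at GV and 482 to 773 CPM at MII, so the stages overlapped and the change of -0.38 ± 0.16 missed the threshold (adjusted p = 0.0531). It passed in 9 of the alternatives, DESeq2 among them (adjusted p = 0.0359). Its paralog Zar1l was 25.4-fold lower.

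Of 21 genes of the polyadenylation machinery, 6 (28.6%) rose and 5 (23.8%) fell, beside 30.4% and 34.2% of all genes, and the median of -0.03 took both signs across alternatives. Papd4, which encodes the cytoplasmic poly(A) polymerase GLD2, rose by 1.43. Cpsf4l, a paralog of a cleavage and polyadenylation factor that is abundant in oocytes, had 1065, 1148 and 1242 CPM in SN GV and 14.2, 19.5, 24.9 and 31.2 CPM in SN-MII, 51.2-fold lower.

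mRNAs known to be translated or polyadenylated during maturation formed the list with the highest median, 1.17. Of 20 genes, 16 (80.0%) rose, beside 30.4% of all genes, and 2 fell. Their summed level went from between 18200 and 22793 CPM at GV to between 52796 and 64926 CPM at MII, of which Spin1 is a large part. Plat, which encodes tissue plasminogen activator, the classic dormant mRNA, had 1982, 2367 and 2504 CPM at GV and 3152, 5558, 5716 and 6294 CPM at MII. Slbp, the histone mRNA binding protein, had 1745, 1826 and 2330 CPM at GV and 4487 to 5371 CPM at MII. Dazl, a translational activator, went from 655 ± 78.1 to 1586 ± 208 CPM. The members that fell were Ccno, a cyclin gene (1276 ± 61.6 to 227 ± 43.4 CPM), and Cdc6 (-1.40). Mos and Dcp2 (0.65) did not pass. Of the 19 members with a hexamer near the end, 9 (47.4%) held the element, beside 25.8% of all windows. The list was written with such mRNAs in mind, so this share is no separate support.

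Of 26 genes of the mRNA decay machinery tested, 15 (57.7%) rose, beside 30.4% of all genes, 4 fell and 7 did not pass. Their sum went from 5076 to 6462 CPM at GV to between 12796 and 15295 CPM at MII. Btg4, the adaptor that brings the CCR4-NOT deadenylase to maternal mRNA (chr9:51060901-51119875), had 1680, 1940 and 2001 CPM in SN GV and 4224, 4311, 4477 and 5226 CPM in SN-MII, a log2 fold change of 1.28 ± 0.13. The catalytic subunit genes Cnot7 (397 ± 56.9 to 1288 ± 180 CPM) and Cnot6l (71.2 ± 19.6 to 164 ± 22.5 CPM) rose in every SN-MII oocyte beyond every SN GV oocyte. Dcp1a, a decapping gene, rose by 1.93 ± 0.16, and Pan2 and Pan3 by 1.53 and 1.73. The members that fell included Cnot10 (-3.51 ± 0.24) and Cnot1 (-1.79), the latter encoding the scaffold of the same complex.

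The targets of decay were followed in a list of 15 mRNAs written as degraded during maturation. It split into 8 (53.3%) that fell and 7 (46.7%) that rose, beside 34.2% and 30.4% of all genes. Those that fell were Fgf8, Figla, Gja4, Nobox, Npm2, Zp1, Zp2 and Zp3. Those that rose were Bmp15, Gdf9, H1foo, Kit, Oosp1, Pan2 and Smc4, so on this relative scale part of the list did not do what its name says. Gdf9, an oocyte growth factor for cumulus cells (chr11:53431023-53437904), had 4066, 4531 and 5735 CPM in SN GV and 9435, 11483, 11581 and 11671 CPM in SN-MII. H1foo, the oocyte linker histone, had 4050, 4599 and 4744 CPM at GV and 8575 to 12458 CPM at MII. Kit, the oocyte receptor for KIT ligand, had 382, 407 and 484 CPM at GV and 830 to 1052 CPM at MII. Sites of Gdf9 and H1foo are printed above.

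The lowest median of all lists was that of the cytosolic ribosome, which carries out protein synthesis. Of 89 genes of cytosolic ribosomal proteins tested, 85 (95.5%) fell, beside 34.2% of all genes, and 75 fell at least 4-fold, beside 19.7%. The median log2 fold change was -3.85. Their sum was 9905 to 12180 CPM in SN GV and 1772 to 1949 CPM in SN-MII, with no overlap. Rpl12 had 3.996, 5.51 and 5.78 CPM at GV and no counts in any SN-MII library, so it was at least 13.03-fold lower. The member that rose, Rps27l, encodes a ribosomal protein-like paralog induced by stress and had 131, 146 and 157 CPM at GV and 215 to 333 CPM at MII. Rpl10l (0.43), Rps15a (-0.27) and Rps28 (-0.47) did not pass. These 3 were singled out after their values were seen. Ribosomal protein genes have many near-identical pseudogenes, so reads may be shared among copies, and the medians of their annotated transcripts were 855 bases in length and 91 bases in 3′ UTR.

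Of 50 initiation factor genes, 19 (38%) rose and 24 (48%) fell, beside 30.4% and 34.2% of all genes. Falls of at least 4-fold were called in 17 of the 50, beside 19.7% of all genes. Subunits of eIF3 fell widely, among them Eif3m (-5.08), Eif3g (-4.66) and Eif3l (-4.16), and Eif3f had 3 counts or fewer in every SN-MII library and was at least 10.7-fold lower. Eif3a (1.23) and Eif3i (0.82) rose. The eIF4F genes Eif4a1 (1.26), Eif4a2 (1.32), Eif4g1 (0.64) and Eif4g3 (0.61) rose and Eif4e (-0.30) did not pass. Eif4g2, whose product is not part of eIF4F, rose by 1.39. Eif2ak4, which encodes the kinase GCN2, rose by 1.40 ± 0.16. Of 18 cytosolic aminoacyl-tRNA synthetase genes, 11 fell and 4 rose, from Mars (-4.23 ± 0.54) to Hars (1.32 ± 0.21).

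Nuclear genes of mitochondrial proteins also fell in most members. Of 80 genes of the respiratory chain and ATP synthase, 72 (90.0%) fell and 7 (8.75%) rose, with a median of -3.01. Of 77 mitochondrial ribosomal protein genes, 63 (81.8%) fell and 4 (5.19%) rose, with a median of -2.55. Over all genes tested, 34.2% fell and 30.4% rose. Ndufs7, a complex I subunit gene, went from 64.7 ± 4.11 to 0.611 ± 0.612 CPM. Mrpl36 went from 16.0 ± 4.90 to 0.228 ± 0.196 CPM. The exceptions in the respiratory chain were Ndufa10 (104 ± 3.57 to 251 ± 30.2 CPM), Cox6b2 (1.04), Uqcrc2 (0.84), Sdha (0.77), Ndufa4 (0.70), Atp5b (0.46) and Cox8a (0.44). Mrpl3, Mrpl44, Mrpl45 and Mrps14 rose by 0.40 to 0.82. The exceptions were singled out after their values were seen. Genes of the mitochondrial genome were not among the symbols analysed here.

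The proteasome degrades tagged proteins. Of 39 proteasome genes, 26 (66.7%) fell, beside 34.2% of all genes, and 7 rose, with a median of -1.52. Psmb7 led the falls, while Psmd1, a subunit gene of the regulatory particle, rose from 199 ± 21.1 to 599 ± 44.5 CPM. The activator genes Psme3 (0.73) and Psme4 (1.36) rose too. Of 26 chaperone genes, 13 (50%) fell, 5 rose and 8 did not pass. Hspa8, the constitutive HSP70 (chr9:40800984-40810087), had 1309, 1537 and 1615 CPM in SN GV and 56.0, 57.0, 69.0 and 76.0 CPM in SN-MII, 23.0-fold lower. Hsp90ab1 rose by 0.77, and Hspa5 (-0.38) did not pass.

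Genes of nuclear RNA production were described in 3 lists. Of 27 RNA polymerase subunit genes, 16 (59.3%) fell. Polr2c alone rose, from 746 ± 18.7 to 1543 ± 138 CPM, and Polr2i fell from 124 ± 18.2 to 5.78 ± 1.06 CPM. Of 37 nucleolar rRNA processing genes, 22 (59.5%) fell and 7 rose, between Emg1 (-4.93 ± 0.18) and Dkc1 (1.27 ± 0.15). Of 60 spliceosome genes, 23 (38.3%) fell and 22 (36.7%) rose, beside 34.2% and 30.4% of all genes. The Sm protein genes diverged, with Snrpd2 falling from 89.1 ± 10.5 to 2.05 ± 1.09 CPM and Snrpd3 rising by 1.24.

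Fbl is the endogenous gene of the injected FBL-GFP message and could not be told apart from it, since both carry the fibrillarin reading frame. It had 12.2, 41.9 and 92.0 CPM in SN GV and 14.1, 28.4, 35.2 and 87.2 CPM in SN-MII. The stages overlapped entirely, the log2 fold change was -0.24 ± 0.59 (adjusted p = 0.734), and it was 0.61 without SN GV replicate 2.

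**Figure D4:**
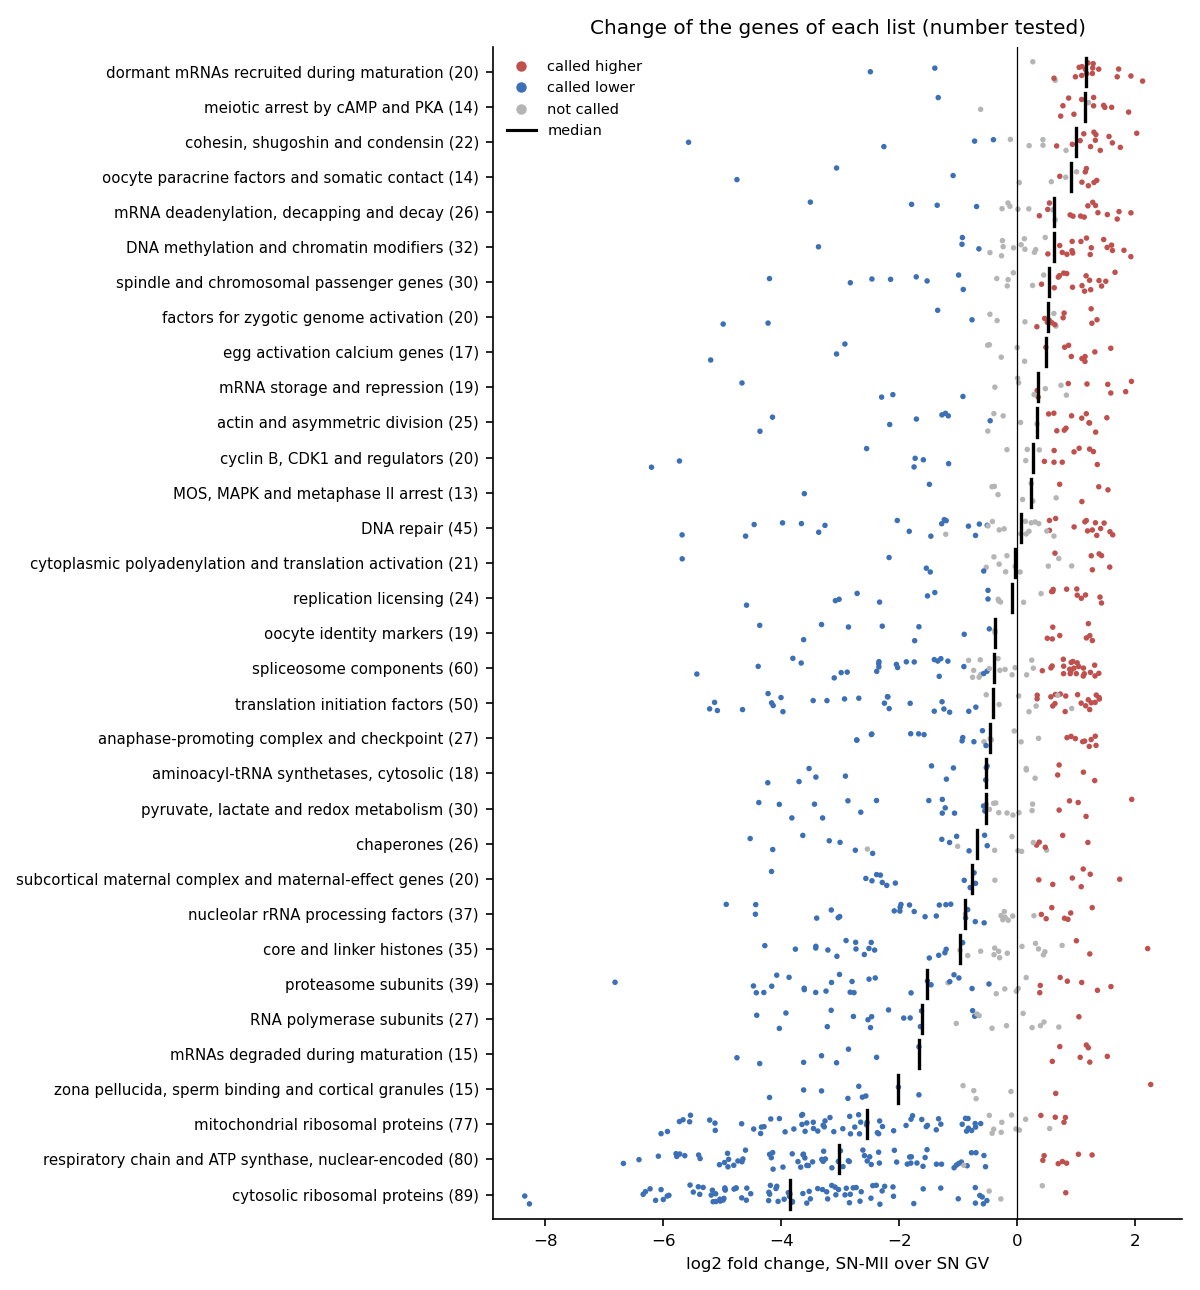
Log2 fold change of SN-MII over SN GV (horizontal axis) of each tested gene in 33 lists of 13 to 89 genes, ordered by list median (black line). Ribosomal and respiratory genes sit at the bottom with medians of -3.85 and -3.01, and dormant mRNAs at the top with 1.17.

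Maternal-effect genes act in the egg for the embryo, and several of them encode the subcortical maternal complex. Of 20 such genes, 12 (60%) fell and 7 (35%) rose, beside 34.2% and 30.4% of all genes, with a median of -0.76. Ooep had 1846, 1865 and 2106 CPM in SN GV and 245, 384, 450 and 511 CPM in SN-MII. Nlrp5, which encodes MATER, had 1670, 1864 and 2045 CPM at GV and 721, 1065, 1082 and 1129 CPM at MII. Khdc3, which encodes FILIA, varied more, with 412, 528 and 839 CPM at GV and 10.6, 34.8, 37.2 and 49.8 CPM at MII, 17.9-fold lower. Tle6 was 5.50-fold lower. All of these core members were thus lower in each SN-MII oocyte than in any SN GV oocyte, while Zbed3 was higher in each. Among 20 factors for zygotic genome activation, 11 (55%) rose and 4 (20%) fell. Nfya (1.27) and Yap1 (1.26) were higher and Dppa4 (20.1 ± 4.63 to 0.620 ± 0.291 CPM) was lower. Of the 19 oocyte markers tested, 8 (42.1%) rose and 9 (47.4%) fell, with a median of -0.38. The transcription factor genes Figla (28.6 ± 8.42 to 1.37 ± 0.411 CPM), Nobox (-2.86) and Lhx8 (-1.74) were among those that fell.

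Of 15 egg coat and sperm-binding genes tested, 9 (60%) fell, beside 34.2% of all genes. Falls of at least 4-fold were called in 8 of the 15, beside 19.7% of all genes. Another 2 rose and 4 did not pass, and the sum went from between 12023 and 13122 CPM to between 2182 and 3227 CPM. Zp3, which encodes a sperm-binding zona glycoprotein (chr5:135980099-135988624), had 3056, 3252 and 3329 CPM in SN GV and 202, 232, 295 and 316 CPM in SN-MII, 12.3-fold lower. Zp2 (-3.32) and Zp1 (-1.66) fell as well on the log2 scale. The genes Izumo1r (-2.87), which encodes the sperm receptor JUNO, and Cd9 (-2.68), needed for membrane fusion, fell too. Astl, which encodes ovastacin, the protease that cleaves ZP2 after fertilization, had 500, 574 and 662 CPM at GV and 512, 858, 1127 and 1149 CPM at MII. The stages overlapped, and its call (0.66 ± 0.23, adjusted p = 0.0244) was lost in 8 alternatives, 4 of which left out a library. Cd81 rose from 0.911 ± 0.153 to 4.45 ± 1.25 CPM, both low levels.

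Genes for the calcium response at fertilization were higher in 9 (52.9%) and lower in 3 (17.6%) of 17 members, beside 30.4% and 34.2% of all genes. The list median of 0.49 became 0.03 without the filter on low counts and -0.0095 with limma without a filter. Itpr1, the calcium channel of the egg endoplasmic reticulum, had 24.8, 39.98 and 39.98 CPM in SN GV and 51.1, 76.6, 84.4 and 87.3 CPM in SN-MII. Camk2g, the kinase that carries the signal, rose by 1.15, and the pump gene Atp2b1 by 1.59 ± 0.15. Among paracrine genes, 7 of 14 (50%) rose and 3 (21.4%) fell. Bmp15, the partner of GDF9, had 2196, 2300 and 2317 CPM at GV and 3589 to 3957 CPM at MII. Fgf8, which supports cumulus glycolysis, fell from 186 ± 24.98 to 6.88 ± 2.40 CPM.

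Among writers and erasers of chromatin marks, 17 of 32 (53.1%) rose, beside 30.4% of all genes, and 4 fell. Dnmt3b rose from 17.9 ± 4.24 to 68.3 ± 10.3 CPM, Kdm6b by 1.81, Kmt2d by 1.62 and Tet3, the maternal oxidase of methylated cytosine, by 1.602. Dnmt1 changed by -0.65 and Dnmt3l by -0.93, and Suv39h1 was at least 4.68-fold lower. Of 35 histone genes tested among 87 measured, 18 (51.4%) fell and 3 (8.57%) rose, beside 34.2% and 30.4% of all genes. Their median was -0.97. Their sum nevertheless went from between 6559 and 7656 CPM to between 11824 and 17336 CPM, a sum in which H1foo took 4464 ± 366 CPM at GV and 10496 ± 1586 CPM at MII. Most replication-dependent histone mRNAs end without a poly(A) tail, and histone genes have near-identical copies, so their values are uncertain. H3f3c, called at 2.21 ± 0.83, overlapped between stages and lost its call in 9 alternatives.

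Of 45 DNA repair genes, 14 (31.1%) rose and 17 (37.8%) fell, near the shares of all genes (30.4% and 34.2%), and the median of 0.06 turned to -0.24 with library totals. Trp53bp1 (332 ± 72.4 to 1023 ± 104 CPM), Brca2 (1.58) and Blm (1.48) rose. The Ku genes Xrcc6 (-4.46) and Xrcc5 (-3.36) were lower. Ube2t had 626, 704 and 738 CPM in SN GV and 312, 329, 360 and 959 CPM in SN-MII. The change was -0.49 ± 0.32 (adjusted p = 0.199) over all libraries and -1.04 (adjusted p = 1.55e-05) without SN-MII replicate 4, the oocyte at 959 CPM. With this library kept, it also passed with library totals (-0.83, adjusted p = 0.0301) and with limma on log2(FPKM + 1) and log2(FPKM + 0.1). The replicate block gave -1.05, but replicate 4 has no SN GV partner there and so adds nothing to the change. Of 24 replication licensing genes, 10 (41.7%) rose and 9 (37.5%) fell, beside 30.4% and 34.2% of all genes, from Cdc7 (1.43 ± 0.20) to Gins4 (-4.59 ± 0.24).

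In energy and redox metabolism, 15 of 30 genes (50%) fell and 5 (16.7%) rose, beside 34.2% and 30.4% of all genes. Ldhc was 20.8-fold lower, but 1 SN GV oocyte held 45.2 CPM and the others 4.62 and 9.78 CPM. The antioxidant genes Gpx4 (-4.03), Sod1 (-3.82) and Prdx3 (-3.30) and the glycolytic gene Pkm (-2.87) were lower. Pdhb (1.17), Idh1 (1.04) and Mpc1 (0.89) were higher. Gclc was called at 1.94 ± 0.80 from levels of 0.913 ± 0.113 and 3.56 ± 2.41 CPM and lost its call in 8 alternatives. Mff, which encodes a factor of mitochondrial fission, had 584, 686 and 717 CPM at GV and 706, 708, 718 and 1268 CPM at MII and did not pass (adjusted p = 0.135).

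The spread between oocytes of one stage was small beside the difference between stages. The common biological coefficient of variation, fitted within each stage, was 0.256 for the 3 SN GV and 0.297 for the 4 SN-MII oocytes. The SD of log2 CPM exceeded 1 in 545 genes (5.08%) at GV and 994 genes (9.27%) at MII. The stages were closer at higher levels: among the 5823 genes with a mean of at least 10 CPM in both stages, 29 genes at GV and 42 at MII had such an SD, and the medians of the SD were 0.206 and 0.227. These are descriptions of 3 and 4 oocytes, and the difference in spread was not tested.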

How the data were processed

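Single SN oocytes were sequenced with SMART-seq2 (3 SN GV and 4 SN-MII libraries). The authors trimmed reads with Trim Galore 0.4.4, mapped them to mm10 with Bowtie2 2.3.5 and quantified genes with RSEM 1.2.28. The authors deposited estimated counts, of which 13.6% of SN values were not whole, and FPKM values. No molecular identifiers or strand-specific step were named, so sampling of reads explains only some of the error, and overlapping genes cannot be told apart.

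Counts were rounded and joined by symbol, and 18939 symbols were in the tables. Total counts per library lay between 7140404 and 8846297. Genes were filtered with filterByExpr (8217 were not tested, 3739 of them at 0 in all 7 libraries), scaled by TMM and compared with edgeR 4.0.16 (R 4.3.3), quasi-likelihood test, two-sided, Benjamini-Hochberg adjustment over all 10722 genes, called at an adjusted p under 0.05. CPM used the scaled library sizes. A stage with 3 counts or fewer in each library was taken as at the floor, set at 3 counts per library, and folds against it are bounds. DESeq2 1.42.0, limma 3.58.1 on log2(FPKM + 1), other scalings and filters, thinning, a replicate block and leaving out each library served as alternatives. The test was tried on simulated data. Replicate numbers did not pair the oocytes. No library duplicated another.

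The 113 genes considered by name were the 8 largest rises and falls, the 5 largest gains and losses in CPM, 33 genes chosen for their role and the extremes of 35 gene lists, less a few items that are not reported here. Other list members are given by log2 fold change. The members and lists were chosen with earlier results of these data known. Shares within windows of like GC content and other orders of the element's letters were added after seeing the data. Motifs were searched in GENCODE M21 transcripts (GRCm38). NSN libraries were not used here.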

Additional observations from a re-analysis of the deposited data

Results flagged for a closer look

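In SN-MII, where 4 oocytes allowed it, single values stood apart from the other 3 oocytes in 16 of the 112 named genes examined, by Dixon's test at its 95% critical value. Chance flags about 1 in 20 such groups, which is 5.6 genes here. For Eif3f, Suv39h1 and Mrpl36 the 4 libraries held 0 to 4 counts each, and the other 3 held 1 count apiece, so their small spread comes from whole counts and these 3 values are not read as departures. Ndufs7, Fam162a and Mok also rest on few counts, 2 to 23 per library. SN-MII replicate 4 held 6 of these values, replicate 1 also held 6, replicate 2 held 3 and replicate 3 held 1. SN-MII replicate 4 was also the deepest library and had the fewest genes detected (11830).

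In SN-MII replicate 4 the high values were Ube2t at 959 CPM (others 312 to 360), Mff at 1268 (706 to 718), Dcp1a at 4258 (3589 to 3685), Fbxo43 at 625 (528 to 531), Ndufa10 at 296 (233 to 239) and Fam162a at 3.06 (0.392 to 0.784). In replicate 1, Cdc20 was high at 675 CPM (543 to 550), Plag1 at 127 (99.2 to 102), Mrpl36 at 0.522 and Suv39h1 at 0.261 (both 0.127 to 0.133 in the others), while Gdf9 was low at 9435 (11483 to 11671) and Nlrp5 at 721 (1065 to 1129). In replicate 2, Cdv3 was high at 969 CPM (863 to 877), Mok at 1.65 (0.522 to 0.666) and Ndufs7 at 1.52 (0.261 to 0.392). In replicate 3, Eif3f was at 0 (0.127 to 0.133). Among these genes, only Ube2t changed its side of the threshold when the library with the flagged value was left out, and its value is given in the report.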

How the results depend on the processing

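Called genes numbered 6385 to 7120 over all alternatives, and 6886 of the 6920 calls were shared with DESeq2, which made 7015. In the limma fits 5 or 6 shared calls had the opposite sign. Genes at least 4-fold higher (101) were 40 with library totals, 6, 61 and 5 with limma on log2(FPKM + 1), log2(FPKM + 0.1) and without a filter, and 83 to 224 when 1 library was left out, 224 without SN GV replicate 2. Other counts over all genes stayed within 1.5 times, with 6385 to 6880 called when 1 library was left out. With the replicate block, 6698 genes were called (3179 higher, 3519 lower). Same-numbered oocytes had deviation correlations of -0.000150, -0.0438 and 0.0529, so the numbers were not read as pairs. The median of the cyclin B list became -0.029 with library totals. That of the MOS list became -0.064 with library totals and -0.18, -0.35 and -0.15 with the 3 limma fits, and that of DNA repair -0.24, -0.18, -0.23 and -0.18, -0.079 with the replicate block and -0.13 to 0.093 with 1 library left out, below 0 in 4 of these 7 fits (without SN GV replicate 2 or SN-MII replicate 1, 2 or 4). That of cytoplasmic polyadenylation became 0.12 with the block and ranged from -0.094 to 0.18 with 1 library left out, above 0 in 4 of the 7 (without SN GV replicate 1 or SN-MII replicate 1, 3 or 4), and that of egg activation -0.0095 with limma without a filter. Mos became -0.045 with library totals, and Fbl ranged from -0.91 to 0.61 with 1 library left out, above 0 without SN GV replicate 2 or SN-MII replicate 1. The share with the element was 75% among genes at least 4-fold higher in 2 of the limma fits, which left few such genes. Among genes at least 4-fold lower it was 6.35% in the last 100 bases, 10.4% with or without the hexamer and 12.2% without a fold minimum, and among all genes 20.3% and 24.7%. Of 108 named genes called, 103 stayed called in every alternative. The causes of these changes were not tested. Small changes of low mRNAs may have been missed with 3 and 4 oocytes.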
